A study of Mus musculus with 8 samples.

Results

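Divergent promoters are short stretches of DNA from which 2 genes on opposite strands are transcribed away from each other. Replication initiation sites (ISs) at such promoters were examined in CH12, a B lymphoma cell line from mouse. The ISs came from short nascent strand sequencing (SNS-seq), which enriches the short leading strands made where replication starts. A member was an IS on the autosomes other than 10, 15 and 16 that lay within 1 kb of transcription start sites (TSSs) of protein-coding transcripts from at least 2 different genes on opposite strands, by the GENCODE M1 annotation of mm9. The comparison of Rif1KO with WT cells held 137 members of 31414 ISs on these 16 autosomes, at 131 gene pairs with 262 genes. The comparison of Rif1KO_shMcm6 with Rif1KO_shLacZ cells held 247 members of 108860 ISs, at 222 gene pairs with 443 genes. Together these were 384 members at 258 gene pairs, of 169053 ISs on all chromosomes of both tables, with an IS found in both tables counted in each.

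Divergent promoters of this kind usually lie in CpG islands, lack a TATA box and often serve a pair of housekeeping genes. Their nucleosome-poor DNA is open to transcription factors, and in mammalian cells promoters in CpG islands are also a frequent place for the origin recognition complex and the MCM2-7 helicase to load. RIF1 brings protein phosphatase 1 to chromatin, where it counters the kinase that activates the loaded helicase, and MCM6 is a subunit of that helicase. A divergent promoter has a further property of interest to replication, since transcription leaves it in both directions and a fork that starts there can move along with both genes.

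The WT group was CH12 cells with RIF1, and the Rif1KO group was CH12 cells, derived as single clones, that lack it. Rif1KO_shLacZ and Rif1KO_shMcm6 cells both lacked RIF1 as well, and carried after lentiviral infection and puromycin selection a hairpin against LacZ, which mouse cells do not have, or against Mcm6. The cells were cultured with IL4, CD40 and TGF beta stimulation. Each group had 2 libraries, grown from separately thawed vials, but the deposited tables hold 1 density per IS and group, the log2 of reads per 1000000 reads in ISs (RPM) with both libraries pooled. No replicate spread can be given and no test between groups was made. Errors are counting errors of the recovered reads, which cover sampling only and not the spread between cultures or clones. Group totals over all ISs were 3350255 reads in WT and 3724571 in Rif1KO cells, and 21071351 and 23602750 in Rif1KO_shLacZ and Rif1KO_shMcm6 cells. The median member had 103 WT reads, 94 Rif1KO reads, 163 Rif1KO_shLacZ reads and 178 Rif1KO_shMcm6 reads. The tables were scaled separately, each group to the same total over the ISs of its table, so levels are compared only within a table.

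DNA of 6 members is shown as examples of their base composition. They come from the rankings used below (densest, highest and lowest fold change in each table). From each ranking the first pair whose whole gap was free of annotated exons and reached into the IS was taken, or else the first IS with a long enough exon-free stretch, on the plus strand of mm9 from 5′ to 3′. The first is the whole gap between the TSSs of Prkar1b and Heatr2, and the others are exon-free stretches inside the IS. Capitals mark CCAAT boxes (CCAAT), GC boxes (GGGCGG), the E-box (CACGTG) and the ETS core (CCGGAAG), on either strand.
Prkar1b/Heatr2 (chr5:139625956-139626176): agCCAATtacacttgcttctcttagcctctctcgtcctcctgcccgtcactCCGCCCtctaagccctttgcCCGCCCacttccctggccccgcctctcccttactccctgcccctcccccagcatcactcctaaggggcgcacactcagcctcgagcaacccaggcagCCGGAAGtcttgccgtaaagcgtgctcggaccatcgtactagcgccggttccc
Sgce/Peg10 (chr6:4697205-4697305): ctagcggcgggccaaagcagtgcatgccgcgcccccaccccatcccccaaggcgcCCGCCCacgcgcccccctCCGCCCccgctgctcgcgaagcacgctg
C2/Ehmt2 (chr17:35035608-35035807): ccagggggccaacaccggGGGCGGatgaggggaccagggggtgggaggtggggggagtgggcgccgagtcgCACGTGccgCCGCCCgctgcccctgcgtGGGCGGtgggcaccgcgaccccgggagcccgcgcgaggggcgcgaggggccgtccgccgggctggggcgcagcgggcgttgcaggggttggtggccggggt
Lrrc42/Hspb11 (chr4:106925291-106925490): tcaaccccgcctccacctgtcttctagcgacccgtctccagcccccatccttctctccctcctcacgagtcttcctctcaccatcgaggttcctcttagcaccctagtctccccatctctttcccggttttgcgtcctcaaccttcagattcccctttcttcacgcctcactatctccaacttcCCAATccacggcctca
2610109H07Rik/Mad2l2 (chr4:147504293-147504492): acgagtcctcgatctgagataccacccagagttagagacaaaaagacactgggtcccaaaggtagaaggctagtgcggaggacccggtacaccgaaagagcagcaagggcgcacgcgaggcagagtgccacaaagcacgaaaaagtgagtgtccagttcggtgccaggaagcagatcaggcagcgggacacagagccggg
Inca1/Kif1c (chr11:70513222-70513421): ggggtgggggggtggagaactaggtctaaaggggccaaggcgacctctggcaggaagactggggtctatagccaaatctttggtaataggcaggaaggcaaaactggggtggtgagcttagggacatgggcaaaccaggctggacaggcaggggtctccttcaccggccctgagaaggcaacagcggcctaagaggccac
The Prkar1b/Heatr2 gap of 221 bases had 14 CpG dinucleotides, a GC content of 63.3% and 171 bases inside its IS. The C2/Ehmt2 stretch reached a GC content of 81.5% with 26 CpG dinucleotides in 200 bases. The Inca1/Kif1c stretch had 3 CpG dinucleotides in the same length, at a GC content of 59.5%.

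Most members sat at head-to-head pairs, in which the gene on the minus strand starts to the left of the gene on the plus strand. Of the members, 109 of 137 (79.6%) and 193 of 247 (78.1%) were at head-to-head pairs, and at the others the 2 genes overlapped at their starts. The median gap between the TSSs of head-to-head pairs was 326 bp in the first table and 250 bp in the second. Initiation was not limited to the gap. In the first table the IS midpoint lay between the TSSs at 42 head-to-head members, over the gene on the minus strand at 43 and over the gene on the plus strand at 24. In the second table these counts were 51, 80 and 62. The median distance of the midpoint from the centre of the TSS pair was 331 bp and 438 bp. An IS covered both TSSs at 27 and 40 members, 1 of them at 59 and 90, and neither at 51 and 117. Over all members a mean of 53.4% and 59.6% of IS bases were intronic, 22.2% and 21.1% in untranslated exon sequence (UTR), 8.46% and 8.42% in coding exons and 16% and 10.9% outside protein-coding genes.

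**Figure D1:**
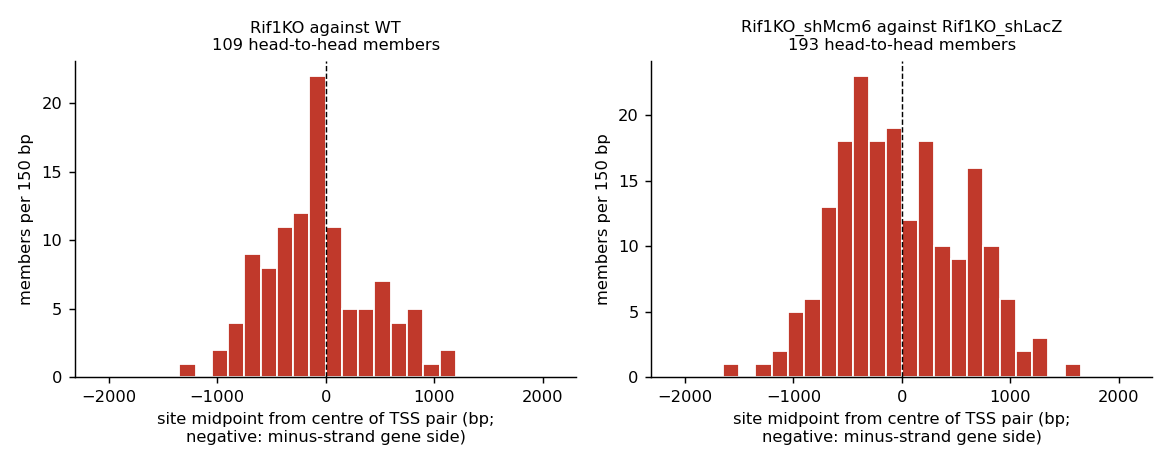
Position of members at head-to-head gene pairs. The x axis is the distance in bp of the IS midpoint from the centre of the TSS pair, negative towards the gene on the minus strand, and bars count members per 150 bp. Midpoints within 500 bp of the centre make up 65.1% and 57.5%, where the rule already keeps every member within 1 kb of both TSSs.

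The rule used one distance limit. The member nearest to the limit in the first table was at Sec23a/Sip1, 992 bp from the farther TSS, with a WT density of 4.65 log2 RPM and a log2 fold change of -0.50. The first IS outside it, at 4930597O21Rik/Gng12, was 1012 bp away with 3.39 log2 RPM and a log2 fold change of 0.62. In the second table the same positions were held by Gm16686/Gm13271 at 995 bp (log2 fold change 0.10) and Dido1/2310003C23Rik at 1004 bp (0.02). Provisional symbols, such as those with Gm or Rik, named a gene of the pair at 55 and 83 members, so part of the pairs rests on little studied gene models.

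Most divergent promoters carried no IS. The annotation held 1118 gene pairs on the 16 autosomes with TSSs on opposite strands at most 1000 bp apart, and 883 of them (79%) had no IS of any group within 1 kb of both TSSs. An IS from the WT list lay at 91 pairs (8.14%, 95% Wilson interval 6.68 to 9.89%) and one from the Rif1KO list at 94 (8.41%, 6.92 to 10.2%). The counts were 160 (14.3%, 12.4 to 16.5%) for Rif1KO_shLacZ and 170 (15.2%, 13.2 to 17.4%) for Rif1KO_shMcm6, whose libraries were deeper. Within each comparison the groups differed by less than these intervals. By pair, 67 were in both the WT and Rif1KO lists, 24 in WT alone and 27 in Rif1KO alone. For the hairpin groups 127 pairs were in both lists, 33 in Rif1KO_shLacZ alone and 43 in Rif1KO_shMcm6 alone. Counted by IS, 59.9% of members and 53.1% of all ISs were called in both WT and Rif1KO cells. For the hairpin groups these shares were 64% and 66%, so nothing particular to divergent promoters is read from this turnover. At 47 pairs all 4 lists had an IS.

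Genes whose TSSs had no protein-coding TSS of another gene on the opposite strand within 2000 bp gave a similar share, with 1179 of 16426 (7.18%, 6.79 to 7.58%) in WT and 2359 (14.4%, 13.8 to 14.9%) in Rif1KO_shLacZ. At promoters with a GC content of 65% and over, the WT share was 10.9% of 433 divergent pairs (8.26 to 14.1%) and 15% of 4042 one-direction genes (13.9 to 16.1%). The Rif1KO_shMcm6 share there was 18.2% (14.9 to 22.2%) and 26.2% (24.8 to 27.5%). An IS had to lie near both TSSs of a pair but near only 1 TSS otherwise, so the shares are not measured alike and the difference was not tested. By the gap between the TSSs, the Rif1KO_shLacZ share was 15.7% of 496 pairs with a gap of 1 to 150 bp (12.8 to 19.2%) and 13.2% of 205 with a gap above that and up to 300 bp (9.21 to 18.5%). It was 10.2% of 118 pairs with a gap above 300 and up to 600 bp (5.91 to 16.9%) and 22.8% of 57 with a longer one (13.8 to 35.2%). The WT shares of these classes were 6.65%, 9.76%, 12.7% and 7.02%. The intervals overlapped, and the class from 300 to 600 bp was highest in WT but lowest in Rif1KO_shLacZ, so no order by gap held in both lists.

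Members were denser than the typical IS in both control groups, and close to other promoter ISs. The median WT density was 4.94 log2 RPM (quartiles 4.43 and 5.36) at members, 4.84 at the 1959 ISs near TSSs of 1 direction only, 4.43 at the 29318 ISs away from promoters and 4.45 at all ISs. In Rif1KO_shLacZ cells it was 2.95 (2.46 and 3.68), beside 2.96 at 4683 one-direction promoter ISs, 2.74 at 103930 ISs away from promoters and 2.75 at all. Members made up 0.436% of ISs and 0.603% of the reads in them in WT cells (0.594 to 0.613%), and 0.53% in Rif1KO cells (0.522 to 0.539%). In the second table they were 0.227% of ISs with 0.287% of reads in Rif1KO_shLacZ cells (0.285 to 0.29%) and 0.261% in Rif1KO_shMcm6 cells (0.259 to 0.264%). The share of reads in members was lower in the treated group of both comparisons, by more than counting error. Members were also wider than the typical IS, with a median of 506 bp against 445 bp over all ISs in the first table and 648 bp against 599 bp in the second.

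The 5 densest WT members lay on different chromosomes. The IS at Trip12/Fbxo36 (chromosome 1, 84834816 to 84836058), beside genes for an E3 ubiquitin ligase and an F-box protein, had 7.14 log2 RPM in WT and 6.98 in Rif1KO cells (471 and 469 reads), although it was called as an IS in Rif1KO cells only. At Prkar1b/Heatr2 (chromosome 5, 139625347 to 139626126), with a regulatory subunit of protein kinase A and a factor for assembly of axonemal dynein, the densities were 6.69 and 6.63. Gm15698/Coil, whose named gene encodes the Cajal body scaffold coilin, had 6.52 and 6.28, and its IS lay wholly between the genes. Chtf8/Cirh1a, with a subunit of the CTF18 clamp loader and a ribosome biogenesis factor, had 6.23 and 6.05, and Klhdc3/Mea1 had 6.20 and 6.09. Each of these 5 was slightly lower in Rif1KO cells, with log2 fold changes from -0.24 to -0.06 and counting errors from 0.09 to 0.13. They were picked by their WT density, a choice that favours lower fold changes, so no drop is read from this. At 4 of them the IS midpoint lay over the gene on the minus strand.

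Loss of RIF1 left divergent promoter ISs lower more often than higher. The median log2 fold change of Rif1KO against WT was -0.17 at the 137 members (quartiles -0.38 and -0.04), and 112 (81.8%) were below 0, beside 48.6% of all ISs and 83% of one-direction promoter ISs with a GC content of at least 55%. Of the 137, 15 (10.9%, 6.75 to 17.3%) were lower past 1.5-fold, where 1.35% of all 31414 ISs were. Higher past 1.5-fold were 0 of 137, which allows a share of up to 2.19%, where 0.945% of all ISs were. Beyond 2 counting errors 32 members were lower and 0 higher, beside 3.32% and 2.33% of all ISs. Of the 82 members called as ISs in both WT and Rif1KO cells 6 were lower (7.32%). Of the 30 called in WT only 9 were lower, and of the 25 called in Rif1KO only 0. Calling used the same libraries as the densities, so this split follows in part from the choice. Calls in WT only and in Rif1KO only made up 21.9% and 18.2% of members but 13.6% and 33.3% of all ISs. The shares of lower members and of lower ISs thus rest on unlike mixes of calls. Without pairs that include a provisional gene name the count of lower members was 8. One-direction promoter ISs had a median of -0.13, with 115 lower (5.87%, 4.91 to 7%) and 5 higher. ISs away from promoters had a median of 0.02, with 293 lower and 292 higher. The share of lower members overlapped in its interval with that of one-direction promoter ISs, and the difference between these classes was not tested, since ISs that share a promoter or a domain are not independent.

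**Figure D2:**
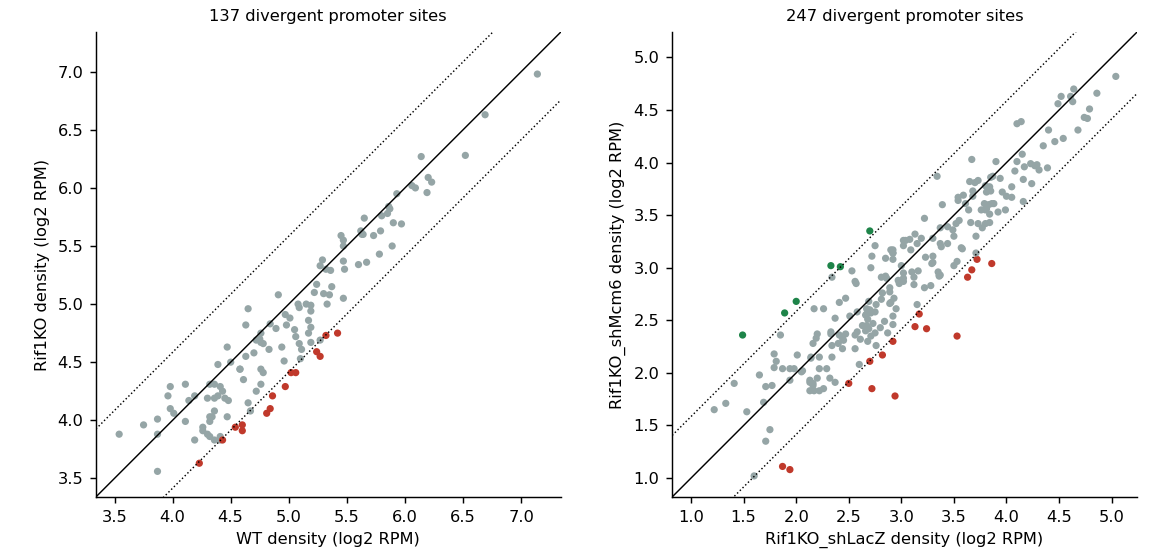
Density of members in both groups of each comparison, in log2 RPM. Each point is a member, the solid line marks equal density and the dotted lines 1.5-fold, with members lower past it in red and higher past it in green. On the left 15 points lie below the lower line and 0 above the upper one, and on the right 16 and 6.

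Among the denser members, whose mean density over both groups reached the members' median, the lowest fold changes after RIF1 loss were at 5 pairs with diverse functions. Surf4/Gm711 (chromosome 2, 26788900 to 26789456), at the start of an ER cargo receptor gene, had 5.27 log2 RPM in WT and 4.55 in Rif1KO cells, a log2 fold change of -0.72 ± 0.20 (counting SE, 129 and 87 reads). C2/Ehmt2 (chromosome 17, 35035481 to 35035935), a complement gene beside the gene of the H3K9 methyltransferase G9a, had 5.42 and 4.75 (-0.67 ± 0.19). This IS was the richest in GC of all members at 80%. Another member at the same pair (35033838 to 35034467) had 5.47 and 5.37 (-0.11 ± 0.17), so the lower value was not shared by both ISs there. Wdr65/Ebna1bp2 had 5.24 and 4.59 (-0.65 ± 0.20), and Ebna1bp2 encodes a ribosome biogenesis factor. Shox2/Rsrc1, a homeobox gene and a splicing regulator gene, had 5.32 and 4.73 (-0.59 ± 0.19). Lamtor2/Ubqln4, with a subunit of the lysosomal Ragulator complex, had 5.27 and 4.69 (-0.58 ± 0.19), just short of the 1.5-fold line. With all members split into 3 equal classes of density, 7, 7 and 1 of the lower members were in the classes of low, middle and high density.

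These 5 were picked as the lowest, so their values beside local ISs are given as a description only. Relative to the median of ISs away from promoters within 500 kb, their log2 fold changes were -0.67, -0.54, -0.63, -0.51 and -0.51 in the order above. Over the 136 members with at least 3 such neighbours the median was -0.14, beside -0.09 at one-direction promoter ISs and -0.13 at those with a GC content of at least 55%. Without this reference the latter had a median of -0.19. The highest fold changes among the denser members were small. Sgce/Peg10, an imprinted pair of a sarcoglycan gene and a retrotransposon-derived gene, had 4.65 and 4.96 log2 RPM (0.31 ± 0.21, 84 and 116 reads). Dnajc7/Nkiras2 had 4.91 and 5.08 (0.17 ± 0.19) and Abi3/Gngt2 5.45 and 5.59 (0.14 ± 0.16). Znfx1/1500012F01Rik (0.12 ± 0.13) and BC028528/Aph1a, with a gamma-secretase subunit gene (0.09 ± 0.15), followed. Apart from Sgce/Peg10 these lay within 1 counting error of 0.

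MCM6 depletion in cells without RIF1 moved members in both directions, with more lower than higher. The median log2 fold change of Rif1KO_shMcm6 against Rif1KO_shLacZ was -0.14 at the 247 members (quartiles -0.32 and 0.08), and 166 (67.2%) were below 0, beside 51.5% of all ISs and 58.9% of one-direction promoter ISs with a GC content of at least 55%. Of the 247, 16 (6.48%, 4.03 to 10.3%) were lower past 1.5-fold, where 1.5% of all 108860 ISs were. A further 6 (2.43%, 1.12 to 5.2%) were higher, where 4.82% of all ISs were. The balance over all ISs thus leaned to higher and that over members to lower. Beyond 2 counting errors 74 members were lower (30.0%) and 16 higher (6.48%), beside 11.4% and 12.7% of all ISs. Of the 158 members called in both hairpin groups 10 were lower and 0 higher. One-direction promoter ISs had a median of -0.04, with 180 lower (3.84%, 3.33 to 4.43%) and 230 higher (4.91%, 4.33 to 5.57%). Relative to ISs away from promoters within 500 kb the members' median was -0.06 in place of -0.14, and that of one-direction promoter ISs was 0.03.

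**Figure D3:**
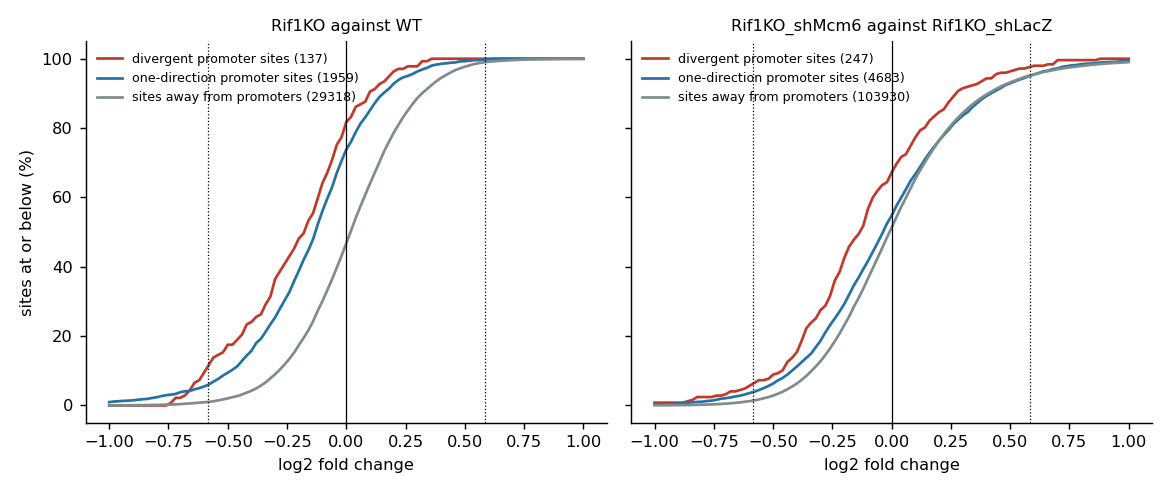
Cumulative share of ISs by log2 fold change for members, one-direction promoter ISs and ISs away from promoters, with the number of ISs in brackets. Dotted lines mark 1.5-fold. The curve of members lies to the left of that of ISs away from promoters in both comparisons, with medians of -0.17 against 0.02 and -0.14 against -0.01.

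The densest members in Rif1KO_shLacZ cells stayed within 1.5-fold when MCM6 was depleted. Lrrc42/Hspb11 (chromosome 4, 106924935 to 106925847), whose second gene encodes an intraflagellar transport protein, had 5.04 log2 RPM in Rif1KO_shLacZ and 4.82 in Rif1KO_shMcm6 cells, a log2 fold change of -0.22 ± 0.08 (691 and 665 reads), and was called in Rif1KO_shMcm6 cells only. Slc15a4/Glt1d1, with an endolysosomal transporter gene, had 4.86 and 4.66 (-0.20 ± 0.08). Fbxo44/Fbxo2, a pair of F-box genes, had 4.79 and 4.51 (-0.27 ± 0.09), Spred3/Ggn 4.77 and 4.42 (-0.35 ± 0.09) and Nav1/Gm4793 4.74 and 4.43 (-0.30 ± 0.09). All 5 were lower by more than 2 counting errors. They were picked by their Rif1KO_shLacZ density, a choice that favours lower fold changes, so no drop is read from this.

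The lowest of the denser members in this comparison lay on chromosomes 11, 17 and 18. Tmed7/Eif1a, with genes for a cargo receptor of the secretory pathway and a translation initiation factor, had 3.86 log2 RPM in Rif1KO_shLacZ and 3.04 in Rif1KO_shMcm6 cells (-0.83 ± 0.13, 307 and 194 reads). Inca1/Kif1c, whose second gene encodes a kinesin, had 3.63 and 2.91 (-0.72 ± 0.14), and Erlec1/Asb3 had 3.67 and 2.98 (-0.70 ± 0.14). Prr3/Gnl1 (-0.63 ± 0.13) and Tmem63b/Mrpl14 (-0.57 ± 0.13), the latter with a mitochondrial ribosomal protein gene, followed. Beside local ISs the values of these 5 ran from -0.74 to -0.53, given as a description since they were picked as the lowest.

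Of the 5 highest among the denser members, 1 was past 1.5-fold. This IS, at 2610109H07Rik/Mad2l2 (chromosome 4, 147504171 to 147504795), had 2.70 log2 RPM in Rif1KO_shLacZ and 3.35 in Rif1KO_shMcm6 cells (0.65 ± 0.15, 137 and 240 reads), and Mad2l2 encodes the REV7 subunit of polymerase zeta and shieldin. Its IS had been called in Rif1KO_shLacZ cells only, although the density was higher in Rif1KO_shMcm6 cells. Pdgfa/6330403L08Rik, with a growth factor gene, had 3.34 and 3.87 (0.53 ± 0.13), and Ppp1r3d/9030418K01Rik had 2.75 and 3.21 (0.45 ± 0.16). 4933436C20Rik/Irx5, with a homeobox gene (0.36 ± 0.11), and Sncg/Mmrn2, with the gamma-synuclein gene (0.27 ± 0.10), completed these 5, and 4 of the 5 midpoints lay outside the stretch between the TSSs.

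The extremes of this comparison lay under the limit on mean density used above, and are named here after their values were seen. That limit includes the treated density, and Sdhaf2/Cpsf7 was above the members' median in Rif1KO_shLacZ cells. Sdhaf2/Cpsf7, a succinate dehydrogenase assembly factor gene beside a cleavage and polyadenylation factor gene with TSSs 35 bp apart, had 3.53 and 2.35 log2 RPM (-1.18 ± 0.16, 243 and 120 reads). Pip4k2b/Gm17413 had 2.94 and 1.78 (-1.16 ± 0.20). At the other end Gng3/Bscl2, a G protein subunit gene and the seipin gene, had 1.49 and 2.36 (0.87 ± 0.23, 59 and 121 reads), at a GC content of 46.8%. The members called in Rif1KO_shMcm6 cells only had a median of 0.15 and held 5 of the 6 higher members, while those called in both groups had a median of -0.17. Calling used the same libraries as the densities, so these values follow from the choice.

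The fold change varied with the base composition of the IS. Members were GC-rich, with a median GC content of 61.5% and 57.5% in the 2 tables, against 58.1% and 53.8% at one-direction promoter ISs and 46.8% and 44.3% away from promoters. In Rif1KO against WT, the 45 members with a GC content of 65% and over had a median log2 fold change of -0.25 with 8 lower past 1.5-fold, and the 19 below 50% had -0.11 with 0 lower. Over all ISs of these classes 13.8% and 0.523% were lower. After MCM6 depletion the 27 members of 65% and over had a median of -0.38 with 6 lower, and the 43 below 50% had -0.10 with 1 lower and 2 higher. Over all ISs of these classes 17.9% and 0.936% were lower. One-direction promoter ISs of 65% and over had medians of -0.27 and -0.26, and 14.6% and 21.6% of them were lower, beside 17.8% and 22.2% of members. ISs away from promoters of 65% and over had medians of -0.12 and -0.08, with 9.35% and 7.38% lower, and 9.84% higher after MCM6 depletion. When one-direction promoter ISs were limited to a GC content of at least 55%, 8.63% (7.19 to 10.3%) and 6.71% (5.7 to 7.87%) were lower, within the intervals of the members in both comparisons. Their share of higher ISs after MCM6 depletion was 5.15% (4.28 to 6.19%), and that of members 2.43% (1.12 to 5.2%). The part of GC content in the fold changes was not tested.

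**Figure D4:**
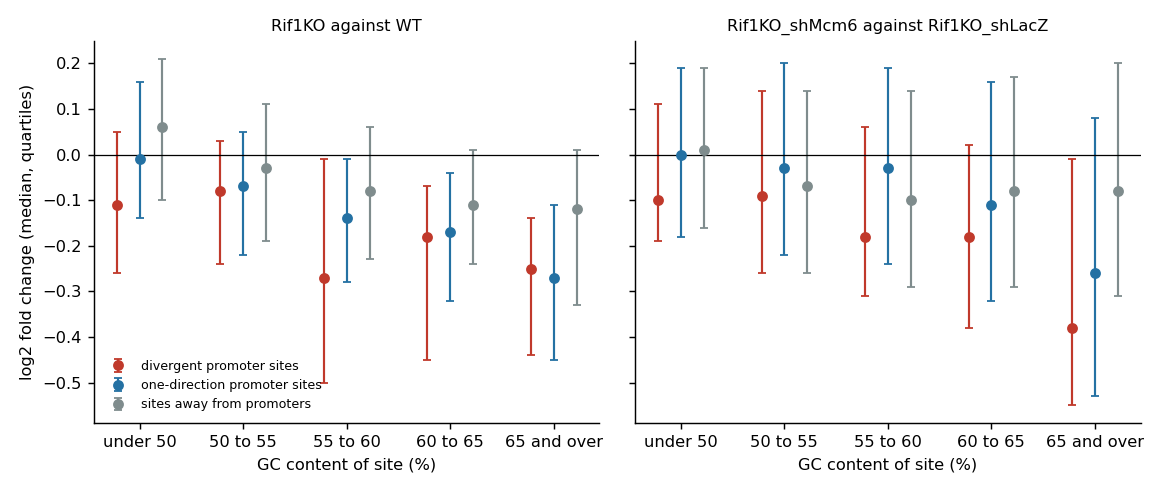
Log2 fold change by GC content of the IS, in 5 classes of GC content. Points are medians and bars reach from the lower to the upper quartile of ISs, for members, one-direction promoter ISs and ISs away from promoters. In the class of 65% and over, members have medians of -0.25 and -0.38 and one-direction promoter ISs -0.27 and -0.26.

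Fold changes were also set against the geometry of the pair. After RIF1 loss the median was -0.20 at 109 head-to-head members and -0.12 at 28 overlapping ones, and after MCM6 depletion -0.16 at 193 and -0.11 at 54. By gap, it was -0.12 at 1 to 150 bp and -0.30 above 600 bp after RIF1 loss, and -0.19 and -0.10 after MCM6 depletion, which run in opposite directions. ISs that covered both TSSs had medians of -0.21 and -0.28 and GC contents of 65.5% and 62.2%, while those that covered neither had -0.13 and -0.11 and 52.8% and 53.5%. Position over the TSSs and GC content therefore differed together between these classes, and their separate parts were not tested.

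Sequence motifs were searched on both strands in the 300 bp around each IS midpoint. A GC box (GGGCGG), bound by SP family factors, was found at 65% of members in the first table and 42.1% in the second, beside 13.7% and 6.35% of all ISs and 66.9% and 44.6% of GC-rich one-direction promoter ISs. The ETS core (CCGGAAG) was at 8.76% and 8.50% of members, 4.80% and 5% of GC-rich one-direction promoter ISs and 1.15% and 0.934% of all ISs. A TATA box (TATAAA) was at 6.57% and 8.10% of members and at 19.6% and 23.5% of all ISs, and a CCAAT box (CCAAT) at 22.6% and 25.1% of members and 38.3% and 38.8% of all ISs. The pattern of a G-quadruplex, 4 runs of at least 3 G with loops of 1 to 7 bases, was at 65% and 32.0% of members and 50.3% and 21.3% of all ISs. GC-rich one-direction promoter ISs had this pattern at 70% and 45.8%, a TATA box at 2.2% and 2.82% and a CCAAT box at 24.4% and 27.5%, so each of these differed from all ISs in the same direction as in members. The 89 members of the first table with this pattern had a median log2 fold change of -0.21 and the 48 without it -0.13. In the second table the medians were -0.26 at 79 and -0.11 at 168. Letters that match a motif describe the sequence, and do not show that a factor bound there.

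Both comparisons shared part of their members. Of the members, 96 of the first table (70.1%) overlapped 96 of the second (38.9%), each exactly 1 of the other, and the comparisons share no library. First-table members overlapped the Rif1KO_shLacZ and Rif1KO_shMcm6 lists at 68.6% and 64.2%, beside 78.6% and 77.4% of all ISs of that table. Second-table members overlapped the WT and Rif1KO lists at 33.6% and 35.6%, beside 16.1% and 21% of all ISs. The WT and Rif1KO_shLacZ densities of these 96 correlated at a Spearman rho of 0.676, given as a description over ISs that share base composition and width. Their fold changes did not order alike, with a rho of -0.00969. The medians were -0.21 after RIF1 loss and -0.23 after MCM6 depletion, and 61 ISs were below 0 in both, 16 in the first only, 15 in the second only and 4 in neither. Past 1.5-fold, 11 were lower in the first comparison and 9 in the second, with 1 IS in common. A share of 1 in 9 is close to 11 of 96, so nothing is read from this overlap. Most of the 96 were below 0 in each comparison taken alone, so nothing is read from the 61 either.

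The IS in common was at Nudt22/Trpt1 (chromosome 19), with a log2 fold change of -0.61 ± 0.28 after RIF1 loss and -0.60 ± 0.20 after MCM6 depletion. Densities were 4.23 and 3.63 log2 RPM in WT and Rif1KO cells, and 2.50 and 1.90 in Rif1KO_shLacZ and Rif1KO_shMcm6 cells. At 2610109H07Rik/Mad2l2 the directions were opposite, with 5.02 in WT and 4.41 in Rif1KO cells (-0.62 ± 0.21) but 2.70 and 3.35 in the hairpin groups (0.65 ± 0.15). It was the only IS of the 96 past 1.5-fold in opposite directions. Sdhaf2/Cpsf7, lowest of the 96 after MCM6 depletion, had 5.97 and 5.69 in WT and Rif1KO cells (-0.28 ± 0.14), and Atxn1/5033430I15Rik, lowest after RIF1 loss at -0.75 ± 0.24, had 2.89 and 2.81 in the hairpin groups (-0.08 ± 0.16). Lamtor2/Ubqln4 had similar values in both, at -0.58 ± 0.19 and -0.62 ± 0.18. These pairs were named after their values were seen.

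**Figure D5:**
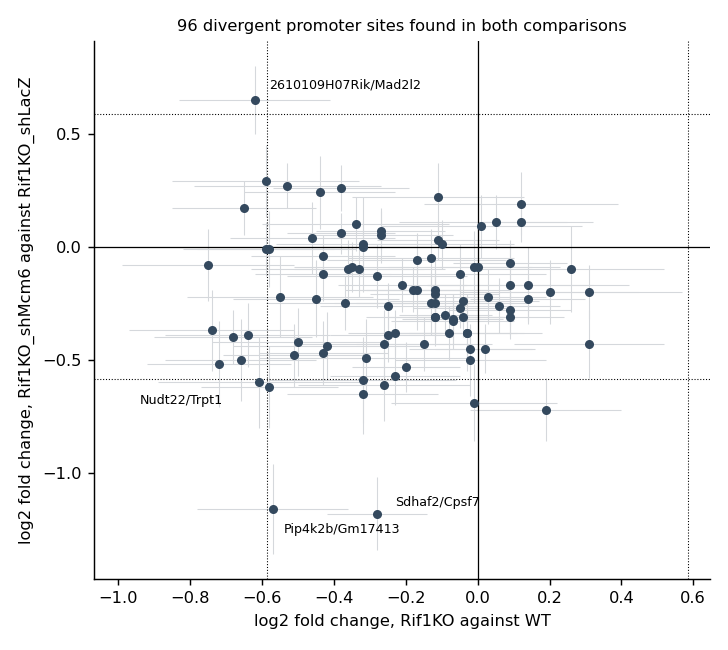
Log2 fold change of the 96 divergent promoter ISs found in both comparisons, Rif1KO against WT on the x axis and Rif1KO_shMcm6 against Rif1KO_shLacZ on the y axis. Bars are counting standard errors and dotted lines mark 1.5-fold. Most points (61) lie below 0 on both axes without a common order, Nudt22/Trpt1 is past the lower line on both, and 2610109H07Rik/Mad2l2 is past it on the x axis and past the upper line on the y axis.

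Divergent promoters often serve genes of basic cell functions, and members at such genes were counted by list. Genes of DNA replication and repair were at 47 annotated divergent promoters and at 5 members of the first table, all below 0 and none past 1.5-fold, with a median of -0.18, close to the -0.17 of all members, of which 81.8% were below 0. The list does not hold Mad2l2, which also acts in DNA repair and whose IS was past 1.5-fold in both comparisons, so these counts are of the listed genes only. Besides Chtf8/Cirh1a these included Xrcc3/Zfyve21, a gene of homologous recombination (5.17 and 4.75 log2 RPM, -0.43 ± 0.19), Orc4/Mbd5, with a subunit of the origin recognition complex (5.15 and 5.0, -0.15 ± 0.19), and 6330408A02Rik/Lig1, with DNA ligase 1 (4.97 and 4.91, -0.06 ± 0.20). After MCM6 depletion the list's 7 members had a median of -0.11, with 5 below 0 and none past 1.5-fold. The IS at Orc4/Mbd5 had 3.99 and 3.55 log2 RPM there (-0.43 ± 0.12), and that at Chtf8/Cirh1a 4.35 and 4.16 (-0.19 ± 0.10).

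Mitochondrial genes were a second group. Mitochondrial ribosomal protein genes were at 24 divergent promoters and at 1 and 5 members, and after MCM6 depletion all 5 were below 0 with a median of -0.37. Mrpl41/Pnpla7 had 3.77 and 3.38 log2 RPM (-0.40 ± 0.13) and Mrpl32/Psma2, which pairs a mitochondrial ribosomal protein gene with a proteasome subunit gene, 3.57 and 3.19 (-0.37 ± 0.13). Genes of respiration and mitochondrial import were at 2 and 5 members, all below 0, with medians of -0.16 and -0.38. Fam126b/Ndufb3, with a complex I subunit gene, had 4.27 and 3.97 in the hairpin groups (-0.30 ± 0.10), and Tomm34/Stk4 had 4.05 and 3.67 (-0.38 ± 0.11). Only Sdhaf2/Cpsf7 of this list was lower past 1.5-fold. With 67.2% of all members below 0 in this comparison, counts of 5 of 5 in small lists are given as a description only.

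Cytosolic ribosomal protein symbols were at 2 and 3 members. One of these, Rps6kb1/Tubd1, carries the gene of the S6 kinase rather than of a ribosomal protein, and had 5.47 and 5.05 log2 RPM (-0.43 ± 0.18) and 3.53 and 3.06 (-0.47 ± 0.14). At Rpl15/Nkiras1 the values were 5.17 and 4.86 (-0.32 ± 0.19) after RIF1 loss and 3.68 and 3.68 (0.00 ± 0.12) after MCM6 depletion. Proteasome genes were at 0 and 3 members, with 2 of the 3 below 0 and a median of -0.21. Besides Mrpl32/Psma2 these were Sirt3/Psmd13 at 3.50 and 3.30 (-0.21 ± 0.13) and Psme2/Rnf31 at 2.17 and 2.61 (0.44 ± 0.19). Genes of transcription and splicing were at 2 and 6 members with medians of -0.23 and -0.22, among them Snrpa/BC024978, with a gene of the U1 spliceosomal particle, at 5.30 and 5.09 (-0.21 ± 0.18) and at 3.79 and 3.61 (-0.17 ± 0.12). Lnx2/Polr1d, with a subunit gene of RNA polymerases I and III, was the 1 member of this list higher past 1.5-fold, at 1.89 and 2.57 (0.68 ± 0.20). Replication-dependent histone genes at 15 divergent promoters and aminoacyl-tRNA synthetase genes at 11 had 0 members in either table. Over all divergent promoters 21% had an IS in any list, and little can be read from a count of 0 in lists this short.

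Well-known head-to-head pairs, like 79% of all annotated divergent pairs, were mostly without an IS. Of 19 pairs listed, 17 lay on the 16 autosomes, 15 were divergent within 1000 bp in this annotation, and 1 had a member in the second table. Wrap53/Trp53 (chromosome 11, 69393989 to 69394785), where the p53 gene starts opposite a telomerase holoenzyme gene, had 3.02 log2 RPM in Rif1KO_shLacZ and 3.26 in Rif1KO_shMcm6 cells (0.24 ± 0.15, 171 and 226 reads), with 96.4% of its bases in introns. Pairs without a member included Hspd1/Hspe1, Atm/Npat and Brca1/Nbr1. An IS below the calling threshold or outside a cluster would not be listed, so the lack of one does not show that replication never starts there.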

How the data were processed

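SNS-seq libraries of 4 groups of CH12 cells, 2 per group, were analysed from the deposited tables. The authors trimmed reads with Trim Galore 0.6.4 and cutadapt 2.6, aligned them to mm9 with Bowtie 1.2.3, called peaks per library without input, intersected libraries with bedtools, kept clustered peaks only and merged the peaks of 2 groups into a table. The deposited unit is log2 RPM per IS and group, with libraries pooled, and the 4 lists give ISs per group without a usable score. The authors' category column was not used. PCR reads without molecular identifiers are not independent molecules, so intervals and errors cover counting error only. Depth per group was 3350255 to 23602750 reads.

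Whole reads were recovered from the RPM steps (100% of values whole within 0.01 reads). The counting error was the square root of the summed inverse reads, divided by the natural log of 2. A fold past 1.5 (0.58 on the log2 scale) was counted in each direction. Intervals are 95% Wilson intervals, and a count of 0 allows 3 counts. Promoter classes, gaps and GC content came from GENCODE M1 and the NCBIM37 genome, which is mm9 (0 ISs past a chromosome end), and an overlap of 1 bp placed an IS in a list. Class assignment was tested on simulated data. Python 3.11.15, pandas 2.3.3, scipy 1.17.1 and pysam 0.24.0 were used.

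Named ISs were, per table and among members whose mean density reached the members' median, the 5 with the highest control density and the 5 with the highest and lowest fold change, plus listed classic pairs and the densest members of each gene list. Exceptions are marked, and a few items are not reported here. Members and lists were chosen with earlier results of these data known. Alternatives covered the distance, chromosomes, orientation, gene names, fold threshold, pseudocount, density filter, centring, calling and 1 IS per pair.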

Additional observations from a re-analysis of the deposited data

How the results depend on the processing

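No paired analysis was possible because each group has a single pooled density per IS, which also means that no library could be left out. Of 108 alternative values for 14 results, 73 stayed close to the value reported, 35 moved and 0 reversed. Distances of 500 bp and 2 kb gave 89 and 213 members in Rif1KO against WT, and 2 kb gave 413 after MCM6 depletion. Without provisional gene names 82 and 164 members remained. Members lower in Rif1KO numbered 0 past 2-fold, 43 past a log2 threshold of 0.32, 6 when called in both groups and 8 without provisional names, and 1 was higher past 0.32 and 1 with 2 kb. After MCM6 depletion the lower members numbered 2 past 2-fold, 62 past 0.32, 9 on log2(RPM + 1), 10 when called in both groups and 25 with 2 kb. The higher ones numbered 0, 20, 2, 0 and 12 under these settings, and 3 without provisional names. The median fold change after MCM6 depletion was -0.06 relative to ISs away from promoters within 500 kb, an alternative chosen after seeing the data. Median WT and Rif1KO_shLacZ densities were 5.85 and 3.66 per kb of IS, and 5.2 and 3.34 for members called in both groups. Divergent promoters with an IS within 500 bp were 6.35%, 5.9%, 10% and 10.4% in WT, Rif1KO, Rif1KO_shLacZ and Rif1KO_shMcm6 cells, and 11%, 11%, 19.7% and 21.5% within 2 kb. The cause of these movements was not tested beyond what the settings change by construction. Depth limits single ISs, with a median counting error of 0.21 and 0.16 on the log2 scale in the 2 comparisons.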

Other observations

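Chromosomes 10, 15 and 16, left out by the rule, held 15 further ISs at divergent promoters in Rif1KO against WT and 35 after MCM6 depletion. The first had a median WT density of 5.01 log2 RPM and a median log2 fold change of -0.19, with 3 lower and 0 higher past 1.5-fold. The second had a median Rif1KO_shLacZ density of 3.16 and a median log2 fold change of 0.0, with 2 lower and 3 higher. Among the members, 56 of 137 (40.9%) overlapped ISs in all 4 lists, beside 40.3% of all ISs of that table and 45.6% of its one-direction promoter ISs with a GC content of at least 55%. After MCM6 depletion 57 of 247 (23.1%) did so, beside 11.5% and 24.7%.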
